A study of Arabidopsis thaliana with 27 samples.

Results

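The 49 genes described here carry the nuclear auxin signalling pathway of Arabidopsis. They comprise 29 Aux/IAA genes (IAA1 to IAA20 and IAA26 to IAA34), 15 AUXIN RESPONSE FACTOR (ARF) genes and 5 genes for auxin receptors (TIR1, AFB1, AFB2, AFB3 and AFB5). They were taken by gene identifier from the 34262 genes of the count table under a rule that names the 3 families and uses no measured value, although the families were chosen with earlier results of these data known, and the 3 classes were compared over all groups of the study.

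Auxin acts as a molecular glue between an F-box receptor of the TIR1/AFB family and an Aux/IAA protein, which is then ubiquitinated and degraded. Aux/IAA proteins hold ARF transcription factors in check through TOPLESS corepressors, so that their loss releases the ARFs bound at auxin-responsive promoters. Many Aux/IAA genes are themselves induced by auxin, and auxin made under neighbour shade is known to promote elongation of the seedling stem.

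RNA-seq was performed on whole 7-day-old seedlings collected at ZT3, 3 h after lights on. Each genotype was grown in a high red to far-red light ratio (HRFR), or moved to a low ratio (LRFR) for 1 h or for 25 h before collection. The genotypes were pif457, a triple mutant of the light-regulated transcription factor genes PIF4, PIF5 and PIF7 (alleles pif4-101, pif5-3 and pif7-1), hfr1-101, labelled as a mutant of the PIF antagonist gene HFR1, and the wild type Col-0, which carries none of these alleles. The 9 genotype by light groups held 3 libraries each, 27 in all.

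Reads assigned to genes numbered 24857067 to 34863803 per library (median 28117160), and 20887 genes passed the filter on low counts, 47 of the 49 members among them. IAA15 and IAA32 did not pass, with 17 and 59 reads over all libraries. The mutated genes checked the pif457 label: in HRFR, PIF7 averaged 3.24 CPM in pif457 and 51.03 CPM in Col-0, PIF5 averaged 12.8 and 156 CPM, and PIF4 averaged 50.7 and 104 CPM (CPM, read counts scaled to library size by TMM). HFR1 transcript was not lower under the hfr1-101 label (19.8 CPM, against 15.6 CPM in Col-0, both in HRFR), so these counts do not check that label, and the groups are given below as libraries labelled hfr1-101. Replicate 1 of Col-0 after 25 h and replicate 1 of Col-0 in HRFR lay outside the range of the other libraries on the first principal component of the deviations from the group means, at -30.5 and -24.4 against -12.5 to 18.6. Over all 27 libraries, the green tissue marker RBCS1A had 14728683 reads, the root marker PYK10 had 2764071 and the 5 stomatal markers had 3771 to 46070. The root tip gene WOX5 had 282, and the meristem markers STM, CLV3 and WUS had 850, 12 and 7. Since whole seedlings were pooled, fewer cells of a type and less RNA per cell cannot be told apart, and p-values measure the spread between these pools.

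The sequence by which the receptors recognise Aux/IAA proteins divided the class before any expression was considered. This degron core (glycine-tryptophan-proline-proline-valine) was read from the coding DNA of RefSeq TAIR10.1: 17 of the 29 genes encode all 5 residues, 6 (IAA8, IAA10, IAA11, IAA12, IAA13 and IAA27) encode the first 4, and 6 (IAA20 and IAA30 to IAA34) encode neither form. The core codons, in capitals with 6 flanking bases on each side, are shown for IAA29, IAA19, IAA5 and IAA1, whose RNA changed with light, for IAA17, the most abundant Aux/IAA transcript in Col-0 HRFR, and for IAA12, with the 4-residue form. They lie at chr4:15583945-15583971 (+), chr3:5264310-5264336 (+), chr1:5366275-5366301 (-), chr4:8361439-8361465 (+), chr1:1136941-1136967 (+) and chr1:1241061-1241087 (+).
IAA29: gttgttGGATGGCCACCAGTAaaaaca
IAA19: gtggtgGGGTGGCCACCGGTTtgttct
IAA5: gttgtgGGTTGGCCACCGGTTtgttcg
IAA1: atcgttGGATGGCCTCCAGTGagatct
IAA17: gttgtgGGATGGCCACCGGTGagatca
IAA12: gtggtaGGATGGCCACCAattgggtta

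The region before each annotated gene start was searched on both strands for the G-box CACGTG and the PBE-box CACATG, to which PIF proteins can bind, and for the auxin response elements TGTCTC and TGTCGG, to which ARFs can bind. A match is a description of the letters and not evidence of binding, and a PBE-box inside a palindrome such as CACATGTG was counted at both overlapping positions. Within 300 bases, TGTCTC lay before 11 of 29 Aux/IAA genes (37.9%), 2 of 15 ARF genes (13.3%) and 1 of 5 receptor genes, and before 13.0% of all 27443 protein-coding genes. The corresponding shares for Aux/IAA genes and for all genes were 13.8% and 7.09% for the G-box, 31.0% and 13.1% for the PBE-box, and 20.7% and 4.91% for TGTCGG. None of the 15 ARF or 5 receptor genes had a G-box in this window. Within 1000 bases, a G-box lay before 8 Aux/IAA, 4 ARF and 1 receptor gene and before 14.8% of all genes.

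Regions chosen because they hold a match are shown for some of the members whose RNA changed most. They run 5′ to 3′ on the gene's strand, with matches in capitals (RefSeq TAIR10.1). A PBE-box on the opposite strand reads CATGTG, the first auxin response element there reads GAGACA, and the other reads CCGACA in the printed direction. In the IAA19 region, chr3:5263801-5263950 (+), TGTCTC begins 184, 145 and 128 bases before the gene start, a PBE-box 177 bases and a G-box 70 bases before it. In the IAA6 region, chr1:19673713-19673842 (-), TGTCTC begins at 179 bases and PBE-boxes at 172 and 73 bases. A run of 23 bases that includes the first 2 of these matches was identical in IAA6 and IAA19 and lay within 1000 bases of the start of only these 2 of the 27443 protein-coding genes. The IAA5 region, chr1:5366548-5366737 (-), holds TGTCGG at 226 and 97 bases and TGTCTC at 67 bases. The IAA1 region, chr4:8360846-8360975 (+), holds TGTCTC at 135 and TGTCGG at 36 bases, both on the opposite strand, and the IAA30 region, chr3:22995566-22995645 (+), a G-box at 99 and TGTCTC at 56 bases. For IAA29 the single match within 1000 bases was TGTCGG at 572 bases, in chr4:15582732-15582781 (+). The regions of ARF18, ARF11 and AFB1 show their only G-boxes, at 952, 485 and 737 bases, in chr3:22886919-22886958 (+), chr2:19104122-19104161 (+) and chr4:1408123-1408162 (-).
IAA6 and IAA19 shared run: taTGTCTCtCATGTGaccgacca
IAA19: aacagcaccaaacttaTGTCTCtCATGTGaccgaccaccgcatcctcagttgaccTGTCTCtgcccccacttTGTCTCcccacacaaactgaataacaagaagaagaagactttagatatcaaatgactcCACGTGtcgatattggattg
IAA6: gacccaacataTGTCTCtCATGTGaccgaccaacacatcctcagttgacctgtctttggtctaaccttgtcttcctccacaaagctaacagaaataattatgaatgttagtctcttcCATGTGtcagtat
IAA5: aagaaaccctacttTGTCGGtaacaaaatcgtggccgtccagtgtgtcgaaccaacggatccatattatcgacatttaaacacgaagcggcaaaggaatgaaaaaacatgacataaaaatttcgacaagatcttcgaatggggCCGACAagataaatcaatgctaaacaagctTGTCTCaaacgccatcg
IAA1: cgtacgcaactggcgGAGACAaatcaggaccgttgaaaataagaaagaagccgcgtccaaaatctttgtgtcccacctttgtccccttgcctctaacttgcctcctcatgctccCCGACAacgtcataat
IAA30: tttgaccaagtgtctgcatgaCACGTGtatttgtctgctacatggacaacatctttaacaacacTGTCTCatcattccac
IAA29: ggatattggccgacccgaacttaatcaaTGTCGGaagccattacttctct
ARF18: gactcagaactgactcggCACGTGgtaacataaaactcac
ARF11: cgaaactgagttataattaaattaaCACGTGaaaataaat
AFB1: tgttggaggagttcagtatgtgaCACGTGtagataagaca

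The 3 classes behaved differently in sum over the 9 groups. Levels are compared between genes as CPM per kb of annotated exon. Summed over its 29 genes, the Aux/IAA class in pif457 stood at 591 ± 23.4 in HRFR, 633 ± 11.4 after 1 h of LRFR and 622 ± 10.2 after 25 h (CPM per kb, mean ± SD, n = 3). In libraries labelled hfr1-101 the same sums were 692 ± 23.7, 1190 ± 107 and 951 ± 40.8 CPM per kb (SD, n = 3 each). In Col-0 they were 639 ± 56.9, 1087 ± 118 and 861 ± 58.4 CPM per kb (SD, n = 3 each). The 3 libraries after 1 h did not overlap those in HRFR in any genotype, but the distance between them was small in pif457. The ARF sum in Col-0 was 195 ± 4.69, 212 ± 7.81 and 207 ± 5.83 CPM per kb over the same light conditions, and the receptor sum was 103 ± 2.89, 104 ± 4.18 and 102 ± 6.94 CPM per kb. Group means of the receptor sum lay between 102 and 106 CPM per kb in all 9 groups, and libraries of every light condition overlapped in Col-0. These sums were not tested.

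**Figure D1:**
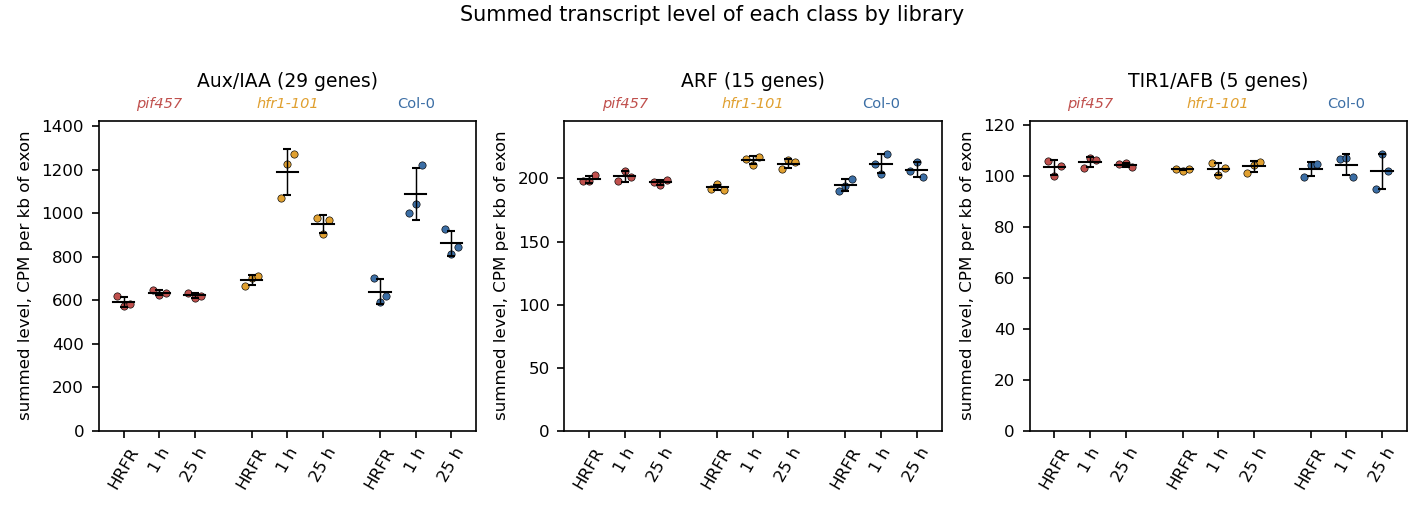
Summed level of each class in each library (points, CPM per kb of annotated exon), with bars at the mean of 3 libraries and error bars of 1 SD, for pif457, libraries labelled hfr1-101 and Col-0 in HRFR and after LRFR for 1 h or 25 h. The Aux/IAA sum after 1 h was 633 CPM per kb in pif457, 1190 under the hfr1-101 label and 1087 in Col-0, whereas the receptor sum stayed between 102 and 106 in all groups.

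Few genes carried most of the 1 h difference in the Aux/IAA sum of Col-0. In Col-0 after 1 h, the Aux/IAA sum exceeded that in HRFR by 448 CPM per kb, of which IAA2 accounted for 26.7%, IAA29 for 18.2%, IAA19 for 15.1% and IAA3 for 11.1%. Before the treatment the class was led by other members. IAA17, IAA16, IAA7, IAA9 and IAA8 together made 63.6% of the Aux/IAA sum in Col-0 HRFR, each between 63.3 and 90.4 CPM per kb. IAA19 stood 16th with 7.04, IAA1 18th with 4.35, IAA6 20th with 1.82, IAA29 21st with 1.72 and IAA5 25th with 0.242 CPM per kb. IAA17, IAA16, IAA7, IAA9 and IAA8 were not called for 1 h of LRFR in Col-0, although at least IAA7 passed the adjusted p. By the adjusted p alone, 13 Aux/IAA genes were higher after 1 h, against 10 called. The share of all genes at this looser threshold is not given here, so the count of 13 has no background beside it. At 25 h the Aux/IAA sum in Col-0 exceeded that in HRFR by 222 CPM per kb. Of this, IAA29 accounted for 16.8%, IAA2 for 16.4%, and the abundant members IAA7 and IAA17 for 15.1% and 12.8%. Among ARF genes, ARF2 alone made 32.8% of the Col-0 HRFR sum (63.8 CPM per kb), and ARF18, the one that rose after 1 h, stood 14th of 15 with 3.80. Among receptors, AFB1 was lowest in HRFR with 11.4 CPM per kb, against 28.9 for TIR1.

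**Figure D2:**
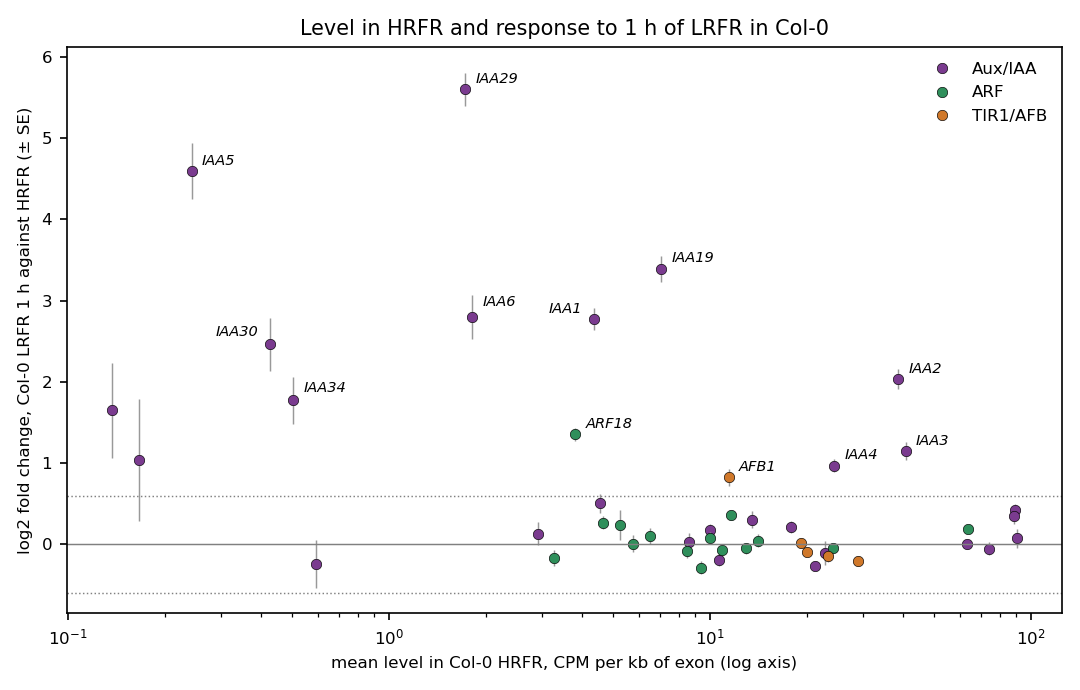
Level of each member in Col-0 HRFR (x axis, mean CPM per kb of annotated exon, log scale) against its log2 fold change after 1 h of LRFR in Col-0 (y axis, error bars 1 SE), coloured by class, with dotted lines at ±0.6. The 5 largest fold changes belong to Aux/IAA genes with at most 7.04 CPM per kb in HRFR, and the most abundant member in HRFR, IAA17, lies near 0.

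The first question was which members responded to LRFR in the wild type, with a gene called where the edgeR quasi-likelihood test gave an adjusted p below 0.05 and log2 levels differed by more than 0.6 in either direction. After 1 h in Col-0, 10 of 27 tested Aux/IAA genes, 1 of 15 ARF genes and 1 of 5 receptor genes rose, and no member fell; 1.42% of all tested genes were called higher and 0.685% lower. The median log2 fold change was 0.43 over the Aux/IAA genes, 0.04 over the ARFs and -0.09 over the receptors, and -0.01 over all genes tested. By DESeq2, 12 members were likewise called, among 468 genes in all. All 12 calls remained when both Col-0 libraries that stood apart were left out, an alternative chosen after seeing the data.

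IAA29 (AT4G32280, chr4:15583332-15584903, +) had the largest change of any member. Its level in Col-0 was 1.98, 2.65 and 2.00 CPM in HRFR, 97.5, 89.8 and 133 CPM after 1 h and 56.9, 42.8 and 50.4 CPM after 25 h. The 3 sets of libraries did not overlap, and the gene was far above its HRFR level at both times. Against HRFR its log2 fold change was 5.60 ± 0.20 at 1 h (SE, edgeR adjusted p = 1.28e-15) and 4.51 ± 0.20 at 25 h (adjusted p = 3.66e-13).

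IAA19 (AT3G15540, MASSUGU2, chr3:5264001-5265695, +), known for its part in tropic bending of the hypocotyl, had 8.21, 5.61 and 7.53 CPM in Col-0 HRFR, 66.5, 71.1 and 88.3 CPM after 1 h and 19.1, 13.2 and 20.8 CPM after 25 h. All libraries after 1 h lay above all others of Col-0, and the 25 h libraries lay between. The log2 fold change was 3.39 ± 0.16 at 1 h (edgeR adjusted p = 1.93e-13) and 1.31 ± 0.16 at 25 h (adjusted p = 4.06e-06). IAA6 (AT1G52830, SHY1, chr1:19672476-19673652, -), which shares the run of 23 upstream bases with it, had 2.59, 0.896 and 1.18 CPM in HRFR, 12.04, 10.4 and 10.9 CPM after 1 h and 4.33, 1.95 and 3.38 CPM after 25 h. It rose by 2.80 ± 0.27 at 1 h (adjusted p = 6.13e-08). Its call at 25 h (1.02 ± 0.29, adjusted p = 0.0203) rested on overlapping libraries and was lost in 6 of 35 alternative settings.

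IAA5 (AT1G15580, chr1:5365512-5366497, -) was nearly silent in Col-0 HRFR, with 0.275, 0.195 and 0.0986 CPM (9, 5 and 3 reads), and reached 3.98, 4.62 and 5.57 CPM after 1 h (117, 128 and 130 reads). At 25 h it had 0.888, 0.448 and 0.788 CPM. The log2 fold change of 4.59 ± 0.34 at 1 h (edgeR adjusted p = 6.80e-10) therefore has few reads in its denominator. It was 1.88 ± 0.42 at 25 h (adjusted p = 0.00364). IAA5 overlaps a gene on the other strand.

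IAA1 (AT4G14560, AXR5, chr4:8360996-8362033, +) and IAA2 (AT3G23030, chr3:8180646-8182095, -), both classed as early auxin-induced genes, rose together although IAA2 was the more abundant. IAA1 had 4.55, 4.29 and 3.52 CPM in Col-0 HRFR, 25.8, 25.7 and 33.3 CPM after 1 h and 11.6, 9.89 and 9.16 CPM after 25 h. IAA2 had 61.8, 46.6 and 48.5 CPM in HRFR, 190.3, 203 and 252 CPM after 1 h and 107, 88.9 and 109.8 CPM after 25 h. In both genes the 3 light conditions did not overlap. IAA1 changed by 2.77 ± 0.13 at 1 h and 1.31 ± 0.14 at 25 h (log2, edgeR adjusted p = 1.93e-13 and 2.76e-07), and IAA2 by 2.04 ± 0.12 and 0.96 ± 0.12 (adjusted p = 1.16e-11 and 4.56e-06).

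IAA30 (AT3G62100, chr3:22995686-22996809, +) and IAA34 (AT1G15050, chr1:5181991-5183413, -) lack the degron core and were the only members of that group to rise in Col-0 after 1 h. IAA30 had 0.366, 0.507 and 0.394 CPM in HRFR, 1.97, 2.49 and 2.53 CPM after 1 h and 0.444, 1.099 and 0.676 CPM after 25 h. Its 25 h libraries overlapped those in HRFR, and only the 1 h comparison was called (log2 fold change 2.46 ± 0.33, edgeR adjusted p = 1.22e-05). IAA34 had 0.397, 0.546 and 0.591 CPM in HRFR, 1.497, 1.88 and 1.89 CPM after 1 h and 1.37, 0.977 and 1.69 CPM after 25 h. It remained above HRFR, by 1.77 ± 0.29 at 1 h (adjusted p = 0.000182) and 1.40 ± 0.30 at 25 h (adjusted p = 0.00212). IAA34 overlaps a gene on the same strand, so reads in the overlap could be set aside as ambiguous or counted for the wrong gene.

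**Figure D3:**
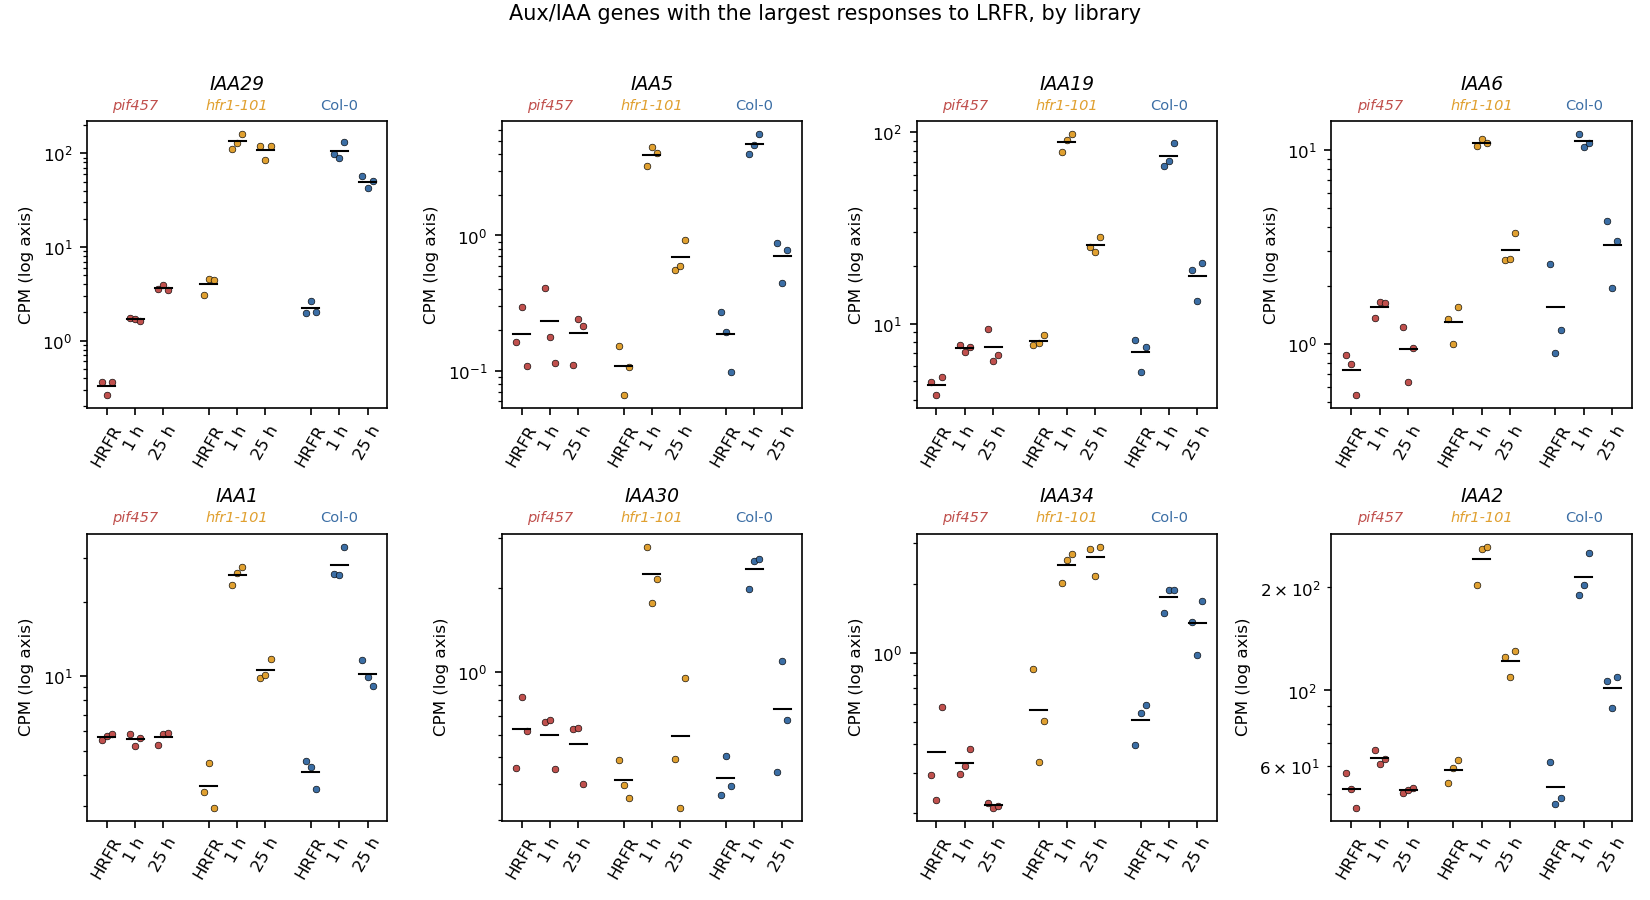
Levels of the 8 Aux/IAA genes with the largest changes in each library (points, CPM, log axis) with bars at the group mean of 3 libraries, for pif457, libraries labelled hfr1-101 and Col-0, each in HRFR and after LRFR for 1 h or 25 h. In Col-0 and under the hfr1-101 label every gene stands higher after 1 h than in HRFR, whereas pif457 shows a called rise for IAA29 alone.

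Of the remaining Aux/IAA genes, IAA3 (SHY2) and IAA4 rose at 1 h by 1.15 ± 0.11 and 0.97 ± 0.08 (log2, edgeR adjusted p = 3.25e-08 and 3.89e-09). The 17 tested genes that were not called ranged from -0.26 for IAA18 to 1.65 for IAA20, which had 3 to 6 reads per library in HRFR and 5 to 21 after 1 h. By degron form, the 10 risers at 1 h comprised 8 of the 16 tested genes with the full core and 2 of the 5 tested genes with neither form, and none of the 6 with the 4-residue form. By upstream sequence, TGTCTC lay within 300 bases of 7 of the 10 risers and 3 of the 17 others, and within 1000 bases of 9 and 7 of them. Either auxin response element lay within 1000 bases of 10 and 10 of them, and a G-box or PBE-box within 1000 bases of 9 and 11. No share over all genes is given for these pooled motifs. Within 300 bases the PBE-box counts were 4 of 10 and 3 of 17, and the G-box counts 2 of 10 and 2 of 17. Those of TGTCGG were 2 of 10 and 4 of 17. Within 1000 bases the PBE-box counts were 8 of 10 and 8 of 17, and the G-box counts 4 of 10 and 4 of 17. Those of TGTCGG were 3 of 10 and 5 of 17. Over all protein-coding genes, the shares within 1000 bases were 37.7% for the PBE-box, 14.8% for the G-box, 39.6% for TGTCTC and 14.6% for TGTCGG. None of these counts was tested.

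In the genome, 3 pairs of neighbouring Aux/IAA genes are transcribed away from each other, and in each pair 1 gene was called at 1 h in Col-0. IAA1 lies 10732 bases from IAA14, IAA2 lies 12510 bases from IAA7 and IAA3 lies 6388 bases from IAA17. IAA1, IAA2 and IAA3 rose, with the values given above. IAA14 (SOLITARY-ROOT), IAA7 (AXR2) and IAA17 (AXR3), best known from dominant auxin-resistant mutants, had log2 fold changes of 0.30 ± 0.11, 0.34 ± 0.09 and 0.08 ± 0.12, of which IAA7 passed the adjusted p (edgeR, 0.0325) without reaching the fold threshold.

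Among the ARF genes, ARF18 and ARF11, both grouped with the repressor-type ARFs, moved at different times. ARF18 (AT3G61830, chr3:22887889-22891455, +) had 8.79, 10.5 and 10.2 CPM in Col-0 HRFR, 22.1, 25.2 and 28.0 CPM after 1 h and 11.7, 13.3 and 12.6 CPM after 25 h. ARF11 (AT2G46530, chr2:19104632-19108486, +) had 16.3, 16.3 and 14.6 CPM in HRFR, 15.3, 13.8 and 18.4 CPM after 1 h and 28.6, 30.8 and 25.0 CPM after 25 h. ARF18 was high in the 1 h libraries and ARF11 in the 25 h libraries, with no overlap with the other light conditions of Col-0. ARF18 rose by 1.35 ± 0.08 at 1 h (log2, edgeR adjusted p = 1.13e-11), and ARF11 by 0.84 ± 0.10 at 25 h (adjusted p = 1.30e-06).

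The activator-type ARFs (ARF5, ARF6, ARF7, ARF8 and ARF19) were not called in any light comparison. ARF7, with ARF19 a main driver of auxin-responsive transcription in seedlings, changed by -0.05 at 1 h in Col-0 (95% interval -0.20 to 0.10). ARF6, a target of miR167, had 33.4, 33.0 and 26.9 CPM after 1 h, against 38.8, 37.1 and 38.3 CPM in HRFR, with no overlap (log2 fold change -0.29 ± 0.08, edgeR adjusted p = 0.0423, below the fold threshold). ARF8, of the same miR167 group, had 53.9, 51.4 and 51.8 CPM, against 45.8, 49.6 and 57.1 CPM, which overlapped (0.04 ± 0.08). ARF10, a target of miR160, had 44.2, 42.9 and 42.5 CPM after 1 h, against 33.0, 32.8 and 35.6 CPM in HRFR, and the difference of 0.35 ± 0.06 (adjusted p = 0.000149) was also short of the fold threshold. The 14 ARFs not called at 1 h thus ranged from -0.29 for ARF6 to 0.35 for ARF10.

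AFB1 was the receptor gene that responded. AFB1 (AT4G03190, chr4:1404887-1407402, -) had 24.3, 28.0 and 27.4 CPM in Col-0 HRFR, 50.1, 52.3 and 38.5 CPM after 1 h and 20.9, 23.8 and 27.6 CPM after 25 h. Its 1 h libraries stood clear of the others, and those at 25 h overlapped HRFR. The rise at 1 h was 0.83 ± 0.11 (log2, 95% interval 0.60 to 1.05, edgeR adjusted p = 7.80e-06). TIR1 (AT3G62980), the founding member of the family, had 67.3, 64.1 and 67.7 CPM after 1 h, against 71.9, 78.1 and 79.3 CPM in HRFR (-0.20 ± 0.06, 95% interval -0.34 to -0.07, adjusted p = 0.0858). The intervals for AFB2, AFB3 and AFB5 were -0.21 to 0.03, -0.28 to -0.01 and -0.12 to 0.14, all inside the fold threshold. AFB1 overlaps genes on the other strand.

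**Figure D4:**
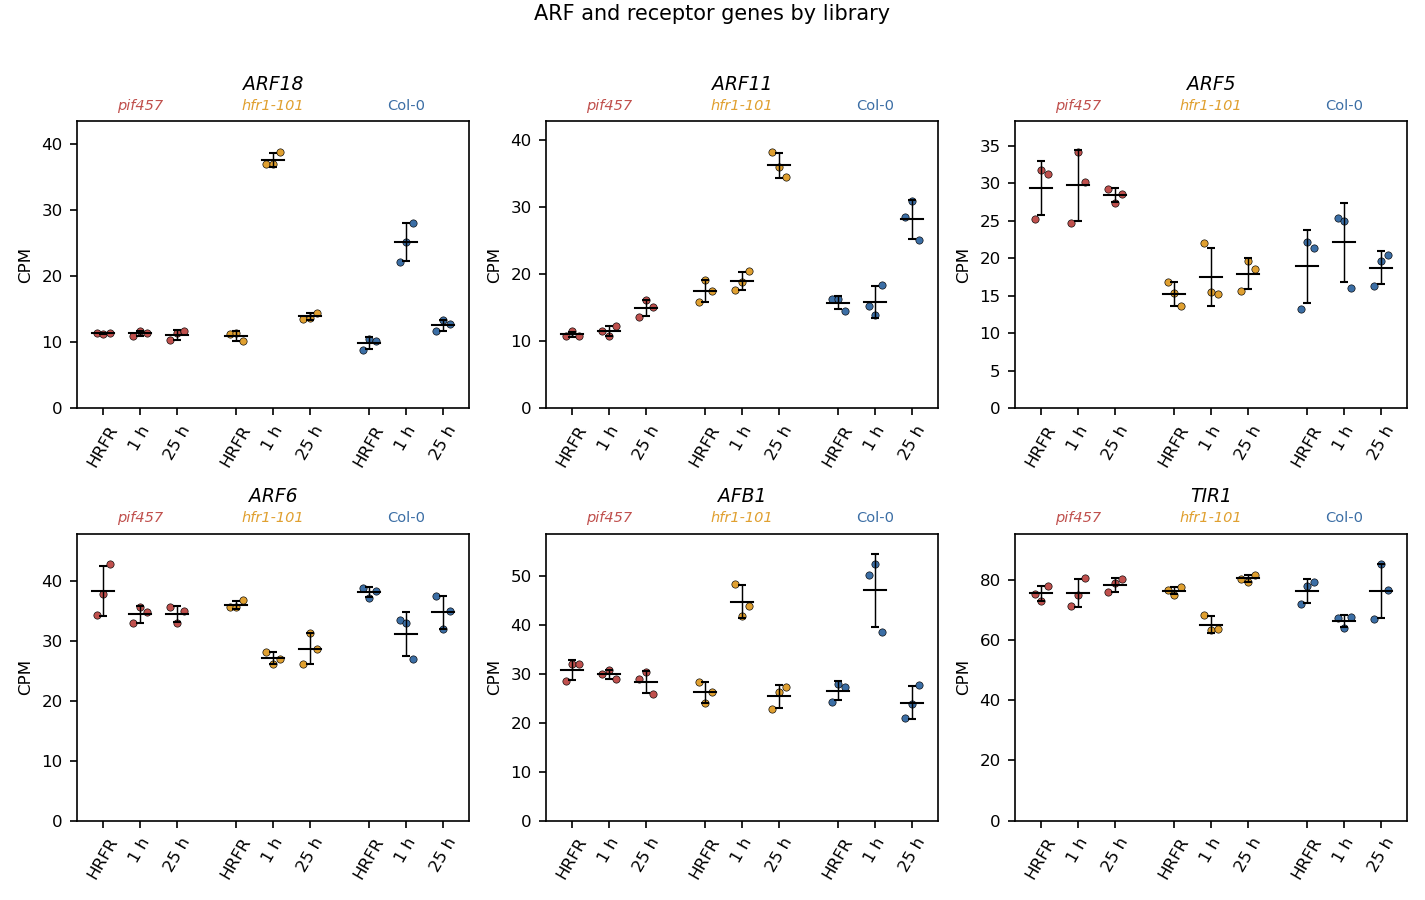
Levels of ARF18, ARF11, ARF5, ARF6, AFB1 and TIR1 in each library (points, CPM) with bars at the mean of 3 libraries and error bars of 1 SD, in the same groups as the Aux/IAA plot. ARF18 and AFB1 are high after 1 h and ARF11 after 25 h in Col-0 and under the hfr1-101 label.

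After 25 h in Col-0, 7 Aux/IAA genes (IAA1, IAA2, IAA5, IAA6, IAA19, IAA29 and IAA34) and ARF11 were called higher than in HRFR, 8 members against 2.38% of all genes, and no member was called lower (all genes 1.66%). Between the 2 treatment times, 9 members were called lower at 25 h than at 1 h (IAA1, IAA2, IAA5, IAA6, IAA19, IAA29, IAA30, ARF18 and AFB1; all genes 2.36%) and 2 were called higher (ARF11 and IAA31; all genes 2.66%). These comparisons share libraries. The share of the 1 h gain still present at 25 h, taken from group means, was 67.1% for IAA34, 45.8% for IAA29, 30.4% for IAA2, 25.3% for IAA1, 15.5% for IAA19 and 11.4% for IAA5. AFB1 had none left (-12.2%). The IAA31 call was fragile, since its levels of 1.15, 0.855 and 0.413 CPM at 25 h overlapped the 0.442, 0.506 and 0.386 CPM at 1 h (log2 fold change 0.84 ± 0.28, edgeR adjusted p = 0.0471), and it was lost in 31 of 35 settings, also without both Col-0 libraries that stood apart.

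Of the cell type markers, the guard cell gene KAT1 moved with the risers. Its level in Col-0 was 117 to 161 CPM after 1 h, against 24.0 to 28.1 CPM in HRFR. The other 4 guard cell and stomatal lineage markers together summed to 37.9 to 42.3 CPM after 1 h and 36.3 to 47.4 CPM in HRFR, and no marker of green tissue, roots, dividing cells or meristem was called at 1 h in Col-0.

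The second question was how these responses differed without functional PIF4, PIF5 and PIF7. In pif457, IAA29 was the single member called after 1 h (all genes called higher 0.139%, lower 0.00958%), after 25 h (0.498% and 0.421%), and between 25 h and 1 h (0.565% and 0.761%). Its levels were 0.359, 0.262 and 0.363 CPM in HRFR, 1.74, 1.72 and 1.63 CPM after 1 h and 3.59, 3.93 and 3.45 CPM after 25 h. The 3 sets did not overlap, and the order differed from Col-0, with 25 h above 1 h. The log2 fold changes were 2.36 ± 0.42 at 1 h (edgeR adjusted p = 0.00762, lost when pif457 HRFR replicate 2 was left out), 3.47 ± 0.35 at 25 h (adjusted p = 1.63e-06) and 1.11 ± 0.26 between the times (adjusted p = 0.0135, lost without LRFR 1 h or LRFR 25 h replicate 2).

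The other Col-0 risers lay closer together in pif457. IAA19 had 4.93, 4.23 and 5.23 CPM in HRFR, 7.77, 7.09 and 7.52 CPM after 1 h and 9.36, 6.38 and 6.87 CPM after 25 h, a difference of 0.64 ± 0.18 at both times that did not pass the test (log2, edgeR adjusted p = 0.318 and 0.0593). Its libraries at both times nevertheless lay above all those in HRFR. IAA6, with a mean of 0.738 CPM in HRFR, differed by 1.06 at 1 h (log2), the highest value among the Aux/IAA genes not called. IAA1 had 5.52, 5.74 and 5.81 CPM, 5.84, 5.22 and 5.62 CPM, and 5.29, 5.84 and 5.91 CPM in the same order. IAA5 stayed between 0.109 and 0.407 CPM in all 9 pif457 libraries. ARF18 stayed between 10.3 and 11.6 CPM and AFB1 between 25.9 and 32.0 CPM in those libraries.

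**Figure D5:**
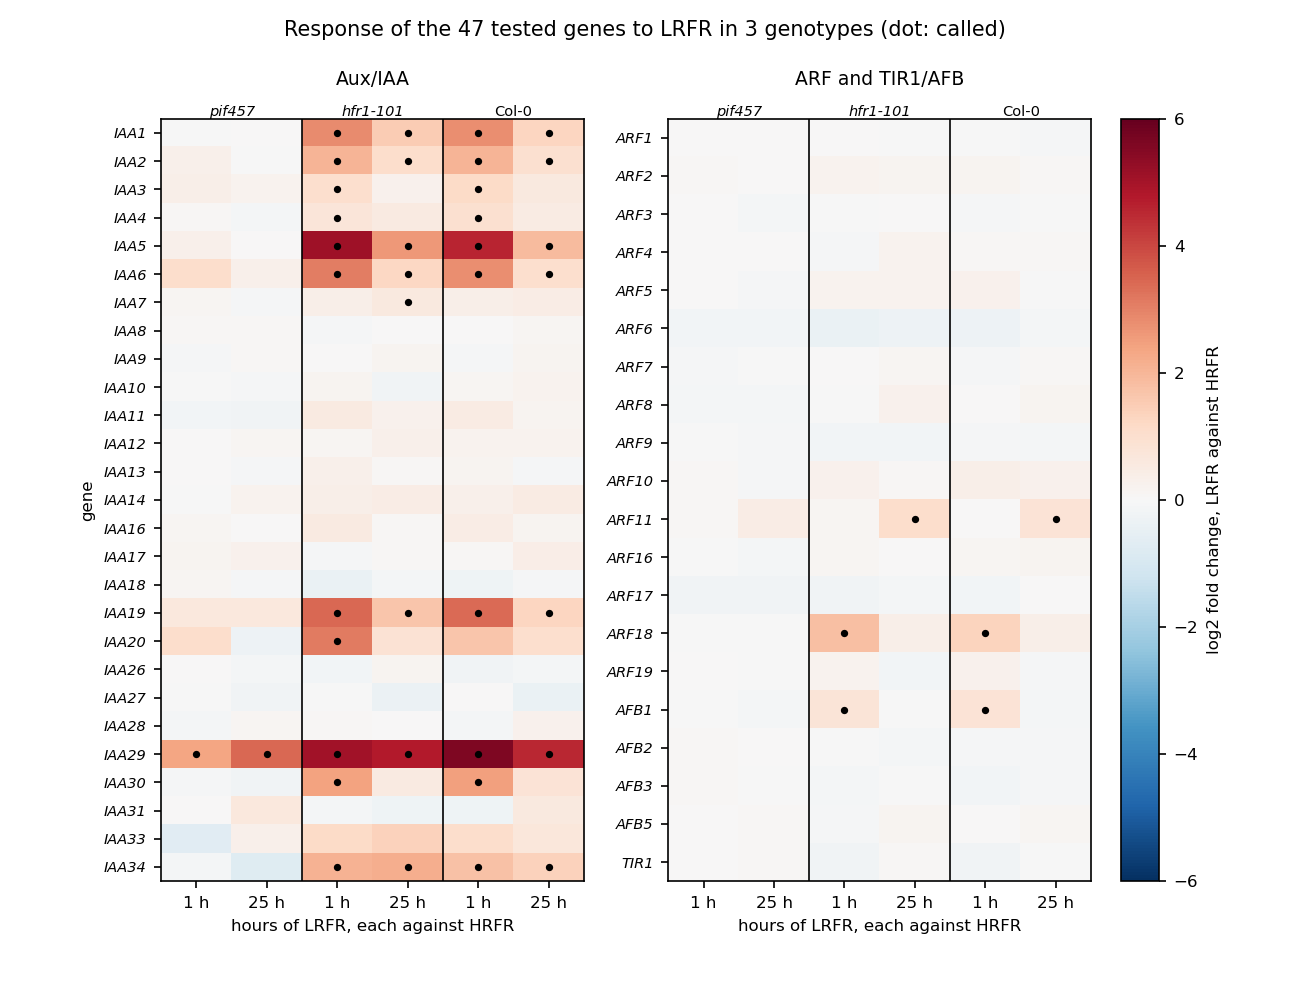
Log2 fold change against HRFR of every tested member (rows, by class) in pif457, libraries labelled hfr1-101 and Col-0, each after 1 h and after 25 h (columns), with dots on called comparisons. The pif457 columns carry dots for IAA29 alone, and the Col-0 and hfr1-101 columns share 12 dots at 1 h and 8 at 25 h.

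The difference between the 1 h responses of pif457 and Col-0 was tested directly as an interaction. It passed for 14 members: the response was smaller in pif457 for 13 and more positive for IAA18 (all genes 1.16% and 0.876%). Among the 13 were all 10 Aux/IAA risers, from -0.80 ± 0.15 for IAA3 to -4.31 ± 0.68 for IAA5, together with IAA11, ARF18 (-1.35 ± 0.12, edgeR adjusted p = 6.38e-08) and AFB1 (-0.87 ± 0.15, adjusted p = 0.00119). For IAA29 it was -3.24 ± 0.61 (adjusted p = 0.00297). The calls of IAA6, IAA34 and IAA11 ended in 20, 17 and 9 of 35 alternative settings, among them the fit of only the groups compared. At 25 h the interaction passed for IAA1, IAA2 and IAA4, all smaller in pif457 (-1.31, -0.97 and -0.61; 0.345% of all genes lower and 0.115% higher). For IAA29 the 25 h value was -1.05 ± 0.54 (adjusted p = 0.791), so a difference between its 25 h responses was not detectable at this spread.

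The same genes were then compared between the genotypes within each light condition. In HRFR, 3 members were lower in pif457 than in Col-0 (IAA14, IAA29 and ARF11; all genes 1.69%) and ARF10 was higher (1.01%). This balance turned with the scaling: with library size alone 7 members were higher, and the share of higher calls over all genes was 74.1%, against 37.3% with TMM. DESeq2 called 3 higher and 6 lower, among 964 genes in all. IAA29 had 0.359, 0.262 and 0.363 CPM in pif457, against 1.98, 2.65 and 2.00 CPM in Col-0 (log2 fold change -2.73 ± 0.39, edgeR adjusted p = 0.000329). IAA14 (AT4G14550), a regulator of lateral root initiation, had 16.4, 13.8 and 14.7 CPM, against 29.2, 23.5 and 24.0 CPM (-0.77 ± 0.11, adjusted p = 0.000329). Neither pair of groups overlapped. ARF11 had 10.8, 11.5 and 10.8 CPM, against 16.3, 16.3 and 14.6 CPM (-0.51 ± 0.10, adjusted p = 0.00619), and ARF10 had 42.4, 38.7 and 40.6 CPM, against 33.0, 32.8 and 35.6 CPM (0.26 ± 0.06, adjusted p = 0.0122). The ARF10 call was lost when Col-0 HRFR replicate 1 or pif457 HRFR replicate 1 was left out.

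After 1 h of LRFR, 17 members were lower in pif457 than in Col-0 (all genes 2.41%) and 2, IAA18 and IAA26, were higher (1.8%). The 17 comprised 14 Aux/IAA genes, ARF11, ARF18 and AFB1. IAA29 had 1.74, 1.72 and 1.63 CPM in pif457, against 97.5, 89.8 and 133 CPM in Col-0 (log2 fold change -5.97 ± 0.21, edgeR adjusted p = 1.03e-15). IAA19 had 7.77, 7.09 and 7.52 CPM, against 66.5, 71.1 and 88.3 CPM (-3.33 ± 0.16, adjusted p = 2.64e-13), and IAA5 had 0.407, 0.179 and 0.114 CPM, against 3.98, 4.62 and 5.57 CPM (-4.31 ± 0.34, adjusted p = 1.62e-09). IAA6 had 1.37, 1.65 and 1.63 CPM, against 12.04, 10.4 and 10.9 CPM (-2.84 ± 0.27, adjusted p = 6.50e-08). None of these groups overlapped. Of the 5 Aux/IAA genes most abundant in Col-0 HRFR, none of which was called for light in Col-0, IAA7 and IAA16 were called lower and IAA8, IAA9 and IAA17 were not. IAA7 had 147, 161 and 155 CPM, against 189, 209.8 and 247 CPM, and IAA16 had 167, 172 and 164 CPM, against 229, 236 and 265 CPM. The guard cell marker KAT1 moved with these genes: after 1 h it had 14.5 to 15.5 CPM in pif457, against 117 to 161 CPM in Col-0, and in HRFR 12.5 to 13.6 CPM, against 24.0 to 28.1 CPM. It was called lower in both comparisons (log2 fold change -3.16 ± 0.14 and -1.04 ± 0.14, edgeR adjusted p = 5.92e-14 and 0.000164) and in the 1 h interaction (-2.12 ± 0.20, adjusted p = 1.94e-07), whereas none of the other 4 guard cell and stomatal markers was called in these 3 tests.

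After 25 h, 13 members were lower in pif457 (all genes 4.04%) and ARF5 was higher (2.83%). IAA29 had 3.59, 3.93 and 3.45 CPM in pif457, against 56.9, 42.8 and 50.4 CPM in Col-0 (log2 fold change -3.77 ± 0.19, edgeR adjusted p = 1.71e-12). IAA34 had 0.222, 0.212 and 0.216 CPM, against 1.37, 0.977 and 1.69 CPM (-2.62 ± 0.34, adjusted p = 2.25e-05). IAA14 had 18.8, 17.3 and 15.8 CPM, against 37.6, 36.8 and 32.0 CPM (-1.04 ± 0.11, adjusted p = 1.17e-06), so that IAA14 was lower in pif457 in all 3 light conditions. ARF11 had 13.6, 16.1 and 15.1 CPM, against 28.6, 30.8 and 25.0 CPM (-0.91 ± 0.10, adjusted p = 1.37e-06).

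ARF5 (AT1G19850, MONOPTEROS, needed for the embryonic axis and veins) had 29.2, 27.4 and 28.6 CPM in pif457 after 25 h, against 16.3, 19.6 and 20.4 CPM in Col-0 (log2 fold change 0.60 ± 0.18, edgeR adjusted p = 0.0473). This call was lost in 21 of 35 settings, also without both Col-0 libraries that stood apart. Markers of dividing cells moved in the same comparison: the 4 markers summed to 52.0 to 61.2 CPM in pif457 and 28.9 to 41.5 CPM in Col-0 after 25 h, with CDKB2;1 called higher, and in HRFR they summed to 46.5 to 58.9 CPM and 25.6 to 46.0 CPM. Among other markers at 25 h, SPCH of the stomatal lineage was called higher, and KAT1 and the root gene TIP2;3 lower. The part of these markers in the genotype differences was not tested.

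The third question was whether the libraries labelled hfr1-101 responded differently from Col-0. After 1 h, 13 members were called higher than in HRFR and none lower (all genes 1.62% and 0.876%). They included all 12 of the Col-0 calls (100% of the Col-0 list and 92.3% of the hfr1-101 list), and IAA20, whose 17, 9 and 14 reads per library after 1 h stood against 2, 2 and 1 in HRFR (log2 fold change 3.10 ± 0.67, edgeR adjusted p = 0.00427). After 25 h, 9 members were called higher and none lower (3.35% and 3.26%), the 8 of Col-0 and IAA7. IAA7 had 274, 292 and 285 CPM, against 176, 176 and 207 CPM in HRFR (0.61 ± 0.09, adjusted p = 4.52e-05). This call lay just above the fold threshold and was lost in 3 of 34 alternative settings. In Col-0 the same gene differed by 0.46 ± 0.09, short of the fold threshold. Between 25 h and 1 h, 10 members were called lower and ARF11 higher (4.08% and 2.98%).

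No interaction between genotype label and light was called for hfr1-101 by edgeR in any of the 20887 genes at either time. At an unadjusted p below 0.05 there were 513 genes at 1 h (1 member) and 1181 at 25 h (5 members), and DESeq2 called 4 and 7 genes, with no member among them. In contrast, 2 members were called between the labels within a light condition. IAA29 after 25 h had 119, 85.1 and 121 CPM under the hfr1-101 label, against 56.9, 42.8 and 50.4 CPM in Col-0, without overlap (log2 fold change 1.11 ± 0.15, edgeR adjusted p = 0.000188; all genes higher 0.177%, lower 0.0766%). ARF18 after 1 h had 36.9, 37.0 and 38.7 CPM, against 22.1, 25.2 and 28.0 CPM, also without overlap (0.58 ± 0.08, adjusted p = 0.00013; 0.139% and 0.0383%). Both calls were lost when only the libraries of the groups compared were fitted. In HRFR no member was called by edgeR (all genes 0.0575% higher and 0.0239% lower). At an unadjusted p below 0.05 there were 2 members among 1146 genes (5.49% of all tested), and DESeq2 called 1 member among 21 genes. IAA29 had the highest value of the Aux/IAA genes in HRFR (log2 fold change 0.87, not called). Its HRFR libraries under the hfr1-101 label lay above those of Col-0 without overlap.

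IAA29 under the hfr1-101 label had 3.07, 4.53 and 4.49 CPM in HRFR, 112, 130.5 and 160.0 CPM after 1 h and 119, 85.1 and 121 CPM after 25 h. The libraries of the 2 treatment times overlapped, and the difference between them was not called (log2 -0.31 ± 0.14, edgeR adjusted p = 0.142). The share of the 1 h gain present at 25 h was 80.2% here and 45.8% in Col-0, a difference that was not tested. IAA34 had 0.852, 0.333 and 0.503 CPM, 2.02, 2.53 and 2.71 CPM, and 2.83, 2.15 and 2.90 CPM under this label, with 111% of the gain present at 25 h, against 67.1% in Col-0. Over the 12 members that rose at 1 h in Col-0, this share was higher under the hfr1-101 label for 9 and lower for 3, namely IAA3 (19.0%, against 42.0% in Col-0), ARF18 (11.1%, against 17.8%) and IAA30 (9.82%, against 16.6%). The 12 were picked by their 1 h rise in Col-0, which is the denominator of the Col-0 share and can lower it. This tally therefore cannot compare the genotypes. It was not tested or set beside the same tally over all genes.

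Over all 19 comparisons, 18 of 27 tested Aux/IAA genes, 4 of 15 ARFs (ARF5, ARF10, ARF11 and ARF18) and 1 of 5 receptors (AFB1) were called at least once, IAA29 in 13. The same share over all genes was not computed, so these counts have no background beside them. IAA31, ARF5 and ARF10 entered by 1 call each, lost in 31, 21 and 3 of 35 settings. The Aux/IAA genes called in no comparison were IAA8, IAA9, IAA10, IAA12, IAA13, IAA17, IAA27, IAA28 and IAA33.

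The partner genes of the pathway were followed as fixed lists. None of the 5 TOPLESS corepressor genes or of the 10 genes for SCF ubiquitin ligase subunits and RUB conjugation was called in any comparison, and neither was AFB4, the single gene tested of a list holding the sixth receptor and 8 further ARFs. Of 7 ARF target genes, 5 were tested and 1 was called at 1 h in Col-0. This was TMO5, a direct target of ARF5, with 22.0, 18.6 and 18.2 CPM, against 8.57, 10.8 and 11.1 CPM in HRFR (log2 fold change 0.95 ± 0.13, edgeR adjusted p = 2.12e-05). In pif457 it had 13.2, 12.4 and 12.5 CPM after 1 h, and the interaction was -0.86 ± 0.19 (adjusted p = 0.0105). Of 5 cell-surface auxin signalling genes, 4 were tested and TMK1 was lower in pif457 than in Col-0 in HRFR (-0.26 ± 0.07, adjusted p = 0.0447) and after 25 h (-0.25 ± 0.07, adjusted p = 0.032). Of 14 small RNA loci linked to the members, the single one tested, TAS3, was higher in pif457 than in Col-0 after 1 h (0.42 ± 0.07, adjusted p = 0.000429).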

How the data were processed

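Seedling RNA was extracted with a Qiagen RNeasy kit and sequenced as Illumina Stranded mRNA libraries. The deposited counts are whole reads per gene in 1 table, made by the authors with Cutadapt, STAR and HTSeq against TAIR10. The strand setting of the counting is not given in the sources used here. For genes that overlap on opposite strands (8 Aux/IAA, 3 ARF and 2 receptor genes), reads in the overlap may therefore have been set aside as ambiguous or counted for the wrong gene. The growth and collection scheme comes from the published methods, which cover Col-0 and pif457; the hfr1-101 groups rest on the sample labels alone, which give their replicate numbers.

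From the counts, edgeR 4.0.16 (R 4.3.3, limma 3.58.1) was run with filterByExpr, TMM scaling and 1 quasi-likelihood fit of 9 group means to 27 libraries (18 residual degrees of freedom, biological coefficient of variation 0.0943). P-values were adjusted by Benjamini-Hochberg over all 20887 genes tested. Light comparisons were called at an adjusted p below 0.05 with an absolute log2 fold change above 0.6, and genotype comparisons and interactions at an adjusted p below 0.05. The fit was tested on simulated data. CPM per kb used the annotated exon length of RefSeq TAIR10.1, from which sequences were also read with Python 3.11.15. Intervals of fold changes are 95%. DESeq2 1.42.0, other scalings and filters, smaller fits, a replicate block and the omission of each library were tried as alternatives. No 2 libraries of a group agreed within sampling noise, so all were counted separately.

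The members and the partner and marker lists were chosen with earlier results of these data known. Values per library are given, by rule, for the 8 Aux/IAA, 5 ARF and 2 receptor genes with the largest fold changes among called light comparisons with HRFR, then the largest of the others. The rule also covers IAA19 and up to 4 members per genotype comparison or interaction. IAA4 met it by the 25 h interaction of pif457 but is given by fold change alone. For some others, values are printed for part of the groups. IAA3, IAA7, IAA16, IAA18, IAA20, IAA31, IAA17 and ARF5 were named outside this rule where a call or a class level turned on them.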

Additional observations from a re-analysis of the deposited data

Results flagged for a closer look

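The response to LRFR differed between pif457 and Col-0 for 17 gene and time combinations, each by the interaction term of the edgeR fit (log2 fold change in pif457 minus that in Col-0). At 1 h the difference was -4.31 for IAA5, -3.24 for IAA29, -2.81 for IAA1, -2.76 for IAA19, -2.53 for IAA30, -1.90 for IAA34, -1.74 for IAA6, -1.73 for IAA2, -0.91 for IAA4, -0.80 for IAA3 and -0.66 for IAA11 among the Aux/IAA genes. It was -1.35 for ARF18 and -0.87 for AFB1. IAA18 had a positive difference, 0.36, with 39.2, 41.4 and 39.6 CPM after 1 h and 38.7, 38.0 and 35.5 CPM in HRFR in pif457, against 28.8, 32.4 and 33.3 CPM and 37.4, 37.6 and 38.4 CPM in Col-0. At 25 h the difference was -1.31 for IAA1, -0.97 for IAA2 and -0.61 for IAA4. The edgeR adjusted p ranged up to 0.0449, for IAA6 at 1 h.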

How the results depend on the processing

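Of 123 calls of a member in a comparison, 101 remained in all 35 alternative settings that gave a value and 22 were lost in at least 1; none was reversed. The 22 include IAA34 and IAA5 at 25 h in Col-0, each in the fit of only the groups compared, and the interactions of IAA6 and IAA34 at 1 h (20 and 17 settings). The cause was not tested, except that smaller fits and omitted libraries leave fewer samples. In the following, counts are of members, with the reported count second. The share of all genes without the fold threshold is not given here, so those counts have no background beside them.

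Without the fold threshold, calls higher than HRFR numbered 16 (8) in Col-0 at 25 h, 2 (1) in pif457 at 25 h and 15 (9) under the hfr1-101 label at 25 h, and calls lower than HRFR in Col-0 numbered 2 (0) at 1 h and 1 (0) at 25 h, with 3 (0) and 2 (0) at these times under the hfr1-101 label. Between 25 h and 1 h they were 14 (9) lower in Col-0, 2 (1) higher in pif457 and 7 (1) higher under the hfr1-101 label. With only the groups compared, 5 (8) were higher in Col-0 at 25 h, 2 (1) in pif457 at 1 h and 2 (1) in pif457 at 25 h, 0 (1) higher in pif457 than in Col-0 in HRFR and 1 (2) at 1 h, 0 (1) higher under the hfr1-101 label than in Col-0 at 1 h and 0 (1) at 25 h, and 0 (1) more positive in the 1 h interaction. Higher calls in pif457 at 25 h were 2 (1) also with library size alone, the replicate block, DESeq2, or without both Col-0 libraries that stood apart, chosen after seeing the data. Higher calls between 25 h and 1 h in Col-0 were 1 (2) in these 4 settings, with no filter, with 18 libraries and with only the groups compared.

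For pif457 against Col-0 in HRFR, higher calls numbered 7 with library size alone, 2 with no filter and 3 with DESeq2 (1), and lower calls 6 with DESeq2 (3). At 25 h, higher calls were 0 (1) with RLE, with 18 libraries and without both Col-0 libraries that stood apart. DESeq2 called 1 (0) higher under the hfr1-101 label than in Col-0 in HRFR. The 1 h interaction had 0 (1) positive calls with library size alone and with 18 libraries. The 25 h interaction had 5 (3) negative calls with library size alone, 5 with the replicate block and 6 with DESeq2. The receptor sum under the hfr1-101 label in HRFR was 102.234 with RLE and 102.608 as reported.

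Leaving out 1 library at a time over all 27, higher calls ranged from 1 to 2 between 25 h and 1 h in Col-0 (1 in 24 of the 27), from 0 to 1 in pif457 at 1 h (0 without HRFR replicate 2), from 1 to 2 at 25 h (2 without Col-0 HRFR replicate 2, LRFR 1 h replicate 3 or LRFR 25 h replicate 2) and from 0 to 1 between 25 h and 1 h (0 without replicate 2 of either time). For pif457 against Col-0 in HRFR they ranged from 0, without Col-0 HRFR replicate 1, to 3, without Col-0 LRFR 1 h replicate 3, and lower calls from 3 to 6 (6 without Col-0 HRFR replicate 2). At 25 h, where ARF5 was the call, they ranged from 0 to 1 (0 in 17 of the 27). The 1 h interaction ranged from 0 to 1 positive calls (0 without replicate 3 of HRFR in Col-0 or pif457, or Col-0 LRFR 1 h replicate 1), and the 25 h interaction from 3 to 5 negative calls (5 without replicate 2 of HRFR in pif457 or under the hfr1-101 label, or Col-0 LRFR 1 h replicate 3). Library size alone moved the share of higher calls over all genes to 72.2%, against 58.9% with TMM, in Col-0 at 25 h, to 62.4% against 42.6% in pif457 between 25 h and 1 h, to 61.6% against 50.7% under the hfr1-101 label at 25 h, to 74.1% against 37.3% and 52.6% against 41.2% for pif457 against Col-0 in HRFR and at 25 h, and to 27.3% against 43.0% in the 1 h interaction. The labels name nothing that replicate numbers share, so the libraries were not treated as paired. Deviations of same-numbered libraries correlated at -0.617 to 0.744 (median 0.0418, 39 of 108 pairs over 0.1), against a median of -0.0134 for other numbers, and 16 of 27 libraries correlated best with their own number, a hint from the data and not the design.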
